A study of Rattus norvegicus with 12 samples.

Results

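Late recovery of the kidney was examined as the difference between kidneys taken 5 weeks after L-NAME was stopped (W5) and kidneys taken 1 week after it was stopped (W1). The members are 6 of the 12 arrays of the series, 3 for W5 and 3 for W1, chosen by their group labels, and each array holds the total RNA of a piece of kidney from a separate animal. All animals were male Sprague Dawley rats. The stated weight of 250 g is given with the administration of L-NAME, and weight and age at sampling are not given for each array. Rats of the W5, W1 and W0 groups had received L-NAME, a competitive inhibitor of the nitric oxide synthases, at 15 mg/kg per day with 6 g/L NaCl in the drinking water, and all had passed a urinary protein to creatinine ratio of 1 g/mmol. L-NAME was stopped once that ratio was passed, so its duration varied between rats, and the duration for each array is not given. The W5 and W1 rats were killed 5 weeks and 1 week after withdrawal of L-NAME, the W0 rats at the peak of damage, and the CTL rats, which were never given L-NAME, alongside the other groups at the same age. W5 and W1 rats are different animals, so a difference between the groups is not a course within a kidney, and damage before withdrawal was not measured on these arrays in the same rats. The question addressed is which genes still differed between early and late repair. A level is a log2 value from RMA (robust multi-array analysis, which corrects background, aligns the arrays and summarizes the probes of a gene), so a difference of 1 is 2-fold.

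When the tubules of the kidney are injured, surviving epithelial cells lose part of their transport machinery, switch on injury proteins such as kidney injury molecule-1, enter the cell cycle and replace lost neighbours. Macrophages and fibroblasts take part in the same process. Macrophages clear debris and secrete complement and chemokines, and fibroblasts lay down collagen and fibronectin between the tubules. As repair ends the epithelium regains its transporters, dividing cells become rare and the infiltrate shrinks, while scar matrix can persist.

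The late recovery kidneys differed from the early ones mainly in genes that were lower at W5. Of 18166 genes, 52 (0.286%) passed in limma at a Benjamini-Hochberg adjusted p under 0.05. Of these, 48 (0.264%) were lower in W5 and 4 (0.022%) were higher, and in all 52 genes the 3 W5 rats lay entirely to one side of the 3 W1 rats. Among all genes 12.4% had every W5 rat below every W1 rat and 5.25% had every W5 rat above. The 52 genes were picked by their difference in these same arrays, so their separation is no further evidence. The smallest change among the 52 genes was 0.66 on the log2 scale. By the looser rule of a 2-fold change with an unadjusted p under 0.05, 63 genes (0.347%) changed, 42 lower and 21 higher in W5. Over all genes 60.1% had a lower mean in W5 than in W1 and the median difference was -0.05. The array medians were 5.77 to 5.79 in W5 and 5.81 to 5.92 in W1.

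The number of called genes rests on few arrays. All 52 genes kept their direction in the 21 other settings in which they were fitted. Leaving out 1 array could not have turned it, since the W5 and W1 rats did not overlap in these genes. Arrays of CTL and W0 do not enter the change itself. When 1 array was left out, the number of called genes became 8 (array 1 of W5), 7 (array 2 of W5), 14 (array 3 of W5), 3 (array 1 of W1), 10 (array 2 of W1) or 64 (array 3 of W1). Arrays of the other groups enter through the shared estimate of spread, and the number was 25, 27 and 32 when CTL arrays 1, 2 and 3 were left out in turn, and 152, 41 and 81 when W0 arrays 1, 2 and 3 were left out in turn. W0 replicate 1 and W1 replicate 1 had the lowest array weights of the 12 (0.46 and 0.4), and without both of them 44 genes were called, 28 lower and 16 higher in W5. Havcr1, Clu and Knl1 were called with any of the 12 arrays left out, Timp1, Adamts1 and Spp1 with 11 of the 12, and 26 of the 52 genes with at most 4.

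Havcr1, which encodes kidney injury molecule-1, a phagocytic receptor that injured proximal tubule cells place on their surface, showed the largest fall. Its log2 level was 5.67, 5.79 and 5.92 in the W5 rats, against 8.91, 8.94 and 8.56 in the W1 rats. It was thus 8.05-fold lower in W5, a log2 change of -3.01 (SE 0.232, 95% confidence interval -3.51 to -2.51, limma adjusted p = 6.98e-05). The gap between the groups was many times wider than the spread within either of them.

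Other genes known from injured tubules were lower in W5 as well, though RNA of whole kidney does not show which cells made them. Clu encodes clusterin, a secreted chaperone that binds misfolded proteins. Its log2 level was 9.41, 9.16 and 9.23 in W5, against 11.27, 11.23 and 10.67 in W1 (3.45-fold lower, limma adjusted p = 0.00275). Spp1 encodes osteopontin, a secreted phosphoprotein that attracts macrophages, and its log2 level was 10.47, 9.98 and 10.01 in W5, against 11.61, 11.8 and 11.53 in W1 (2.81-fold lower, limma adjusted p = 0.00488). The W5 and W1 rats did not overlap for either gene. Cdh6, a cadherin of the developing and repairing proximal tubule, was at 6.24, 6.23 and 6.38 in W5, against 7.27, 7.13 and 7.14 in W1 (change -0.90, limma adjusted p = 0.0245). The intermediate filament gene Vim, which regenerating tubule cells take up, was at 9.62, 9.17 and 9.24 in W5, against 10.42, 10.28 and 9.85 in W1 (change -0.84), and its limma adjusted p of 0.05 lay just inside the threshold.

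In the list of 31 measured genes of tubular injury and repair 8 fell, 0 rose, and 28 had a lower mean in W5. The median change of the list was -0.49, against -0.05 over all genes. In 19 of its members (61.3%) every W5 rat was below every W1 rat, which was the case in 12.4% of all genes. The membrane adaptor pair Anxa2 and S100a10, which together form the annexin A2 tetramer, changed by -0.88 and -0.80, and Tnfrsf12a, the receptor of the cytokine TWEAK, changed by -0.77 (limma adjusted p = 0.0335). Outside the list, Tnfrsf1a, the first receptor of tumour necrosis factor, changed by -0.68 (limma adjusted p = 0.0325). Tff3, a secreted trefoil peptide that was chosen after its values were seen, ran the other way, with 11.22, 10.92 and 11.09 in W5, against 10.23, 9.86 and 9.13 in W1, and did not pass (change 1.34, limma adjusted p = 0.0845).

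**Figure D1:**
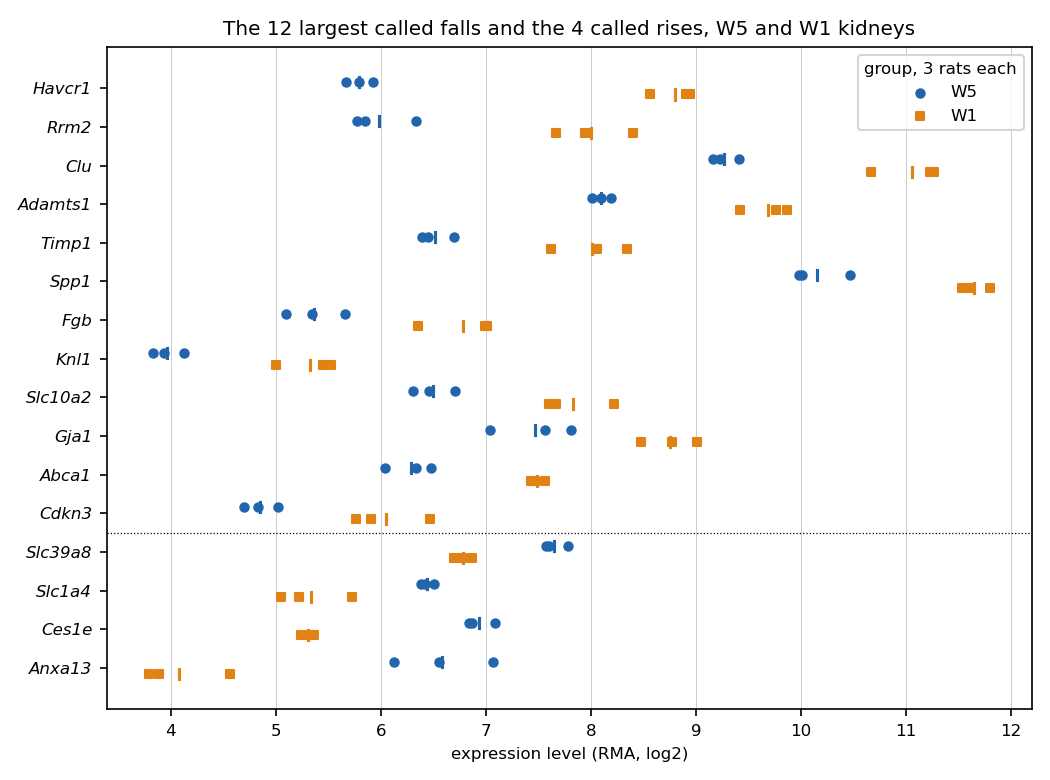
Log2 level (RMA, horizontal axis) of the 12 called genes with the largest falls (above the dotted line) and the 4 called genes that rose (below it) in each of 3 W5 rats (blue circles) and 3 W1 rats (orange squares), with ticks at the group means. In every row the 2 groups are separate, from Havcr1 with a change of -3.01 at the top to Anxa13 with 2.50 at the bottom.

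Genes of the cell cycle also fell. Rrm2, the regulatory subunit of ribonucleotide reductase that supplies deoxynucleotides for DNA synthesis, was at 5.85, 5.77 and 6.33 in W5, against 8.4, 7.94 and 7.67 in W1 (4.06-fold lower, log2 change -2.02, SE 0.351, limma adjusted p = 0.0335). It is the one called gene with 2 probesets. Knl1, a scaffold of the kinetochore, to which spindle fibres attach, was at 4.12, 3.83 and 3.93 in W5, against 5.52, 5.45 and 5 in W1 (2.57-fold lower, log2 change -1.36, SE 0.14, limma adjusted p = 0.00134). The W1 rats were high for both genes and the W5 rats were low without overlap. Rrm2 was called with 4 of the 12 arrays left out in turn. Without W1 replicate 1, its highest W1 rat, it was not called (change -1.82, limma adjusted p = 0.146). Knl1 had a mean level under 5 and was not fitted in the setting limited to genes at 5 or more.

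Further cell cycle genes passed with smaller changes. Cdkn3, a phosphatase of cyclin-dependent kinases, was at 5.02, 4.7 and 4.83 in W5, against 6.47, 5.76 and 5.91 in W1 (change -1.20, limma adjusted p = 0.0233). Prc1, which bundles the microtubules of the central spindle during division, was at 4.73, 4.82 and 5.01 in W5, against 6.4, 5.9 and 5.58 in W1 (change -1.11, limma adjusted p = 0.0428). Mcm6, a subunit of the helicase that opens DNA for replication, was at 5.37, 5.32 and 5.47 in W5, against 6.74, 6.27 and 6.04 in W1 (change -0.96, limma adjusted p = 0.0245). W1 replicate 1 was the highest of the 3 W1 rats in each of these genes, and without it the log2 changes were between -0.99 and -0.77 and none of the 3 genes was called. Outside the lists, the nuclear lamina gene Lmnb1 (change -0.82), the replication factor Wdhd1 (change -0.73) and the chromatin protein Hmgb2 (change -0.89) also fell.

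Nearly all mitotic genes had a lower mean in W5. Of 62 measured genes of mitosis 3 fell (Knl1, Cdkn3 and Prc1), 61 had a lower mean in W5, the median change was -0.51, and 45 (72.6%) had all W5 rats below all W1 rats. Of 37 genes of DNA replication 2 fell (Rrm2 and Mcm6), all 37 had a lower mean, and the median change was -0.35 with 13 genes (35.1%) free of overlap. The mean log2 level over the mitosis list was 4.7 to 4.8 in the W5 rats, against 5.08 to 5.65 in the W1 rats. Top2a, the topoisomerase that untangles chromosomes before they separate, was chosen after its values were seen and lay just outside the threshold, at 5.62, 5.43 and 5.44 in W5, against 7.42, 6.64 and 6.42 in W1 (change -1.33, limma adjusted p = 0.0505). Of the cell cycle arrest genes of the p53 pathway, 0 of 23 passed in limma (3, or 13%, were lower in W5 at an unadjusted p under 0.05, against 8.31% of all genes). Cdkn1a, the inhibitor p21 of that list, was at 6.65, 6.2 and 6.39 in W5, against 7.12, 7.29 and 7.32 in W1 (change -0.83, limma adjusted p = 0.179).

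Since nearly all mitotic genes had a lower mean, promoters of some cell cycle genes are shown. Genes of late cell cycle commonly carry a cell cycle homology region (CHR, TTTGAA) close to a CCAAT box (CCAAT), and genes of DNA replication a site of the E2F factors (TTTNGCGC). The sequences are those of RefSeq (build GRCr8), the 165 bases before the first listed start of each gene, written 5′ to 3′ along the gene. Capitals mark matches to CHR or CCAAT in Prc1, Cdkn3 and Top2a and to E2F or CCAAT in Mcm6 on either strand, so that a match on the other strand appears as the reverse complement of the motif.
Prc1, chr1:143659316-143659480, + strand: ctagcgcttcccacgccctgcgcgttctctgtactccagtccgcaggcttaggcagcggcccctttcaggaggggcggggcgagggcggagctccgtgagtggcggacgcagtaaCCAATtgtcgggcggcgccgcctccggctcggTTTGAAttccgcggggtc
Cdkn3, chr15:22502221-22502385, + strand: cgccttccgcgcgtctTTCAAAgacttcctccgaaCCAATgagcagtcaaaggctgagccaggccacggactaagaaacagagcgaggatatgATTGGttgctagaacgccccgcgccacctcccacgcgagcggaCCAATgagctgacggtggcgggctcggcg
Top2a, chr10:84473094-84473258, - strand: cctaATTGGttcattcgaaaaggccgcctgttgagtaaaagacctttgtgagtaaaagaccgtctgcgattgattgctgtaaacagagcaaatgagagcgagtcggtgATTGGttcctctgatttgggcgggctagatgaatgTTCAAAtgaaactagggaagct
Mcm6, chr13:42404353-42404517, - strand: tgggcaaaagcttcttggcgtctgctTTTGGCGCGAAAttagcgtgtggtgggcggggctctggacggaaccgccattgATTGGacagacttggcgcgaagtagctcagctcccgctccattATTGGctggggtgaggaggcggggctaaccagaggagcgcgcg

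The distance of the matches from the start site differed between these promoters. In Prc1 the CHR begins 18 bases and the nearest CCAAT box 50 bases before the start, and in Top2a they begin 22 and 57 bases before it. In Cdkn3 the CHR lies farther out, at 149 bases, with CCAAT boxes at 130, 72 and 29 bases. Mcm6 has a pair of E2F matches that overlap on opposite strands, at 139 and 135 bases, and CCAAT boxes at 86 and 43 bases. A promoter was matched for 14503 of the 18166 genes, 53 of the 62 mitosis genes and 32 of the 37 replication genes. Within 250 bases before the start, on either strand, CHR and CCAAT box occurred together in 23 mitosis promoters (43.4%), against 5.29% of all promoters. An E2F match occurred in 8 replication promoters (25%), against 1.42% of all promoters. These shares describe the members of the lists and not the change between W5 and W1. Of the 52 called genes 43 had a matched promoter. CHR and CCAAT box occurred together in 5 of these (11.6%) and an E2F match in 1 (2.33%). A match is a run of letters and says nothing of what binds there.

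Several genes of the extracellular matrix fell in W5. Fn1, which encodes fibronectin, was at 8.85, 8.59 and 8.56 in W5, against 9.71, 9.6 and 9.41 in W1 (change -0.91, SE 0.133, limma adjusted p = 0.0202). Col1a2, a chain of fibrillar type I collagen, was at 6.88, 6.89 and 7.01 in W5, against 7.77, 7.83 and 7.64 in W1 (change -0.82, limma adjusted p = 0.0414). Col3a1, the chain of type III collagen, was at 7.42, 7.19 and 7.18 in W5, against 8.27, 8.24 and 7.69 in W1 (change -0.80, limma adjusted p = 0.043). The groups were separate in all of these. The microfibril gene Fbn1 changed by -0.66 (limma adjusted p = 0.0496). The basement membrane chains Col4a1 and Col4a2, which are transcribed from neighbouring genes, changed by -0.76 (limma adjusted p = 0.0245) and -0.69 (limma adjusted p = 0.0377). Col1a1, the partner chain of Col1a2 and chosen after its values were seen, did not pass at 6.84, 6.74 and 6.74 in W5, against 7.27, 7.41 and 7.2 in W1 (change -0.52, limma adjusted p = 0.0593).

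Some regulators of matrix turnover fell as well. Timp1, a secreted inhibitor of matrix metalloproteinases, was at 6.45, 6.39 and 6.7 in W5, against 8.06, 8.34 and 7.62 in W1 (2.82-fold lower, limma adjusted p = 0.00488). Adamts1, a protease that cleaves proteoglycans, was at 8.19, 8.01 and 8.1 in W5, against 9.87, 9.76 and 9.42 in W1 (3-fold lower, limma adjusted p = 0.00488). Adam12, a membrane metalloproteinase of activated mesenchymal cells, was at 5.9, 6 and 5.56 in W5, against 6.7, 6.86 and 6.53 in W1 (change -0.87, limma adjusted p = 0.0233). Inhibitor and proteases thus changed in the same direction. Of 34 genes of interstitial matrix 4 fell (Fn1, Col1a2, Col3a1 and Fbn1), 27 had a lower mean and 16 (47.1%) were free of overlap downwards, with a median of -0.36. Of 17 basement membrane genes 2 fell and the median was -0.25, and of 26 proteases and inhibitors 2 fell (Timp1 and Adamts1) with a median of -0.29. In each of these lists 0 genes were called higher. Every W5 rat was above every W1 rat in 2 basement membrane genes (11.8%) and 1 protease or inhibitor (3.85%), against 5.25% of all genes. Every W5 rat was below in 8 (47.1%) and 11 (42.3%) genes of these 2 lists.

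Nearly all macrophage genes had a lower mean in W5, though 1 passed. Mrc1, the mannose receptor CD206 of tissue macrophages, was at 5, 4.96 and 4.89 in W5, against 5.78, 5.95 and 6.09 in W1 (1.99-fold lower, change -0.99, SE 0.165, limma adjusted p = 0.0248). Of 41 macrophage genes 1 fell, 40 had a lower mean, and 34 (82.9%) had all W5 rats below all W1 rats. The median change of the list was -0.57. Over the 7 macrophage markers Cd68, Cd14, Cd163, Mrc1, Csf1r, Adgre1 and Aif1 the mean log2 level was 5.89 to 6.04 in W5, against 6.49 to 6.75 in W1, and 5 of the 7 had all W5 rats below all W1 rats. Cd163 was not, at 3.57 to 4.09 in W5, against 3.71 to 3.99 in W1. In RNA of whole tissue, fewer cells of a type and less RNA per cell cannot be told apart. Gpnmb, a glycoprotein of lipid-laden macrophages and injured tubules that was chosen after its values were seen, was at 6.03, 6 and 6.4 in W5, against 7.39, 7.62 and 6.97 in W1, and did not pass (change -1.18, limma adjusted p = 0.0728).

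Some secreted and sensing proteins of the innate response fell. C1qc, a chain of the first complement component that macrophages make, was at 7.09, 7.35 and 7.49 in W5, against 8.01, 8.38 and 8.05 in W1 (change -0.83, limma adjusted p = 0.0414). Its partner chain C1qb, chosen after its values were seen, changed by -0.73 and did not pass (limma adjusted p = 0.117). The chemokine gene Ccl6 was at 6.49, 6.64 and 6.7 in W5, against 7.81, 7.92 and 7.4 in W1 (change -1.10, limma adjusted p = 0.0245). Tlr13, which senses bacterial ribosomal RNA in rodents, changed by -0.92 (limma adjusted p = 0.0233), and Cxcl11, a ligand of the T cell receptor CXCR3, by -0.87 (limma adjusted p = 0.043). Nfkbiz, a nuclear regulator of NF-kappa B target genes, changed by -1.03 (limma adjusted p = 0.0414). Of 18 complement genes 1 fell, 15 had a lower mean and 11 (61.1%) were free of overlap, with a median of -0.50. Among 37 chemokines and receptors 2 fell, while 17 had a higher mean and the median of -0.06 changed sign with the arrays centred on their medians (0.02). The macrophage markers were lower in the same W5 arrays in which the injury, cell cycle, matrix and innate genes named above were lower, and their part in those results was not tested.

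A coagulation gene and an acute phase gene fell in W5. Fgb, the beta chain of fibrinogen, was at 5.34, 5.1 and 5.66 in W5, against 7.01, 6.99 and 6.35 in W1 (2.67-fold lower, limma adjusted p = 0.0233). Lbp, which carries bacterial lipopolysaccharide to its receptor, was at 6.82, 6.99 and 6.9 in W5, against 8.08, 8.32 and 7.71 in W1 (2.19-fold lower), with a limma adjusted p of 0.05 just inside the threshold. These were the only members called in their lists, which held 21 coagulation genes with a median of -0.12, 6 of them with a higher mean in W5, and 19 acute phase genes with a median of -0.22.

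Lists of antigen presentation, interferon response and lymphocytes held no called gene in limma. Of 26 antigen presentation genes 24 had a lower mean, 10 of them (38.5% of the list) at an unadjusted p under 0.05, and the median was -0.26. Psmb8, a subunit of the immunoproteasome, had the smallest p of that list, at 6.39, 6.33 and 6.54 in W5, against 7.52, 7.6 and 7.02 in W1 (change -0.96, limma adjusted p = 0.0593). Of 40 interferon response genes 35 had a lower mean, 8 of them (20% of the list) at an unadjusted p under 0.05, and the median was -0.30. Ifit1, a sensor of viral RNA induced by interferon, ran against that list at 5.46, 5.95 and 5.67 in W5, against 4.99, 4.93 and 4.89 in W1, without passing (change 0.76, limma adjusted p = 0.114). Of 38 genes of T, B and natural killer cells 28 had a lower mean, 5 of them (13.2% of the list) at an unadjusted p under 0.05, and the median was -0.10. Of all genes 8.31% were lower at that p. Of 20 genes of neutrophils and mast cells 0 were free of overlap in either direction, against 12.4% of all genes downwards and 5.25% upwards. S100a8, a calcium-binding protein of neutrophils, was at 2.25, 2.27 and 3.06 in W5, against 2.65, 6.31 and 2.48 in W1, so its change of -1.28 came from W1 replicate 2 alone.

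The genes called outside any list include transporters and junction proteins. Slc10a2, the sodium-dependent bile acid transporter of the apical membrane, was at 6.31, 6.46 and 6.71 in W5, against 8.22, 7.67 and 7.6 in W1 (2.52-fold lower, limma adjusted p = 0.0245). Gja1, the gap junction protein connexin 43, was at 7.04, 7.81 and 7.56 in W5, against 9.01, 8.77 and 8.48 in W1 (2.44-fold lower, limma adjusted p = 0.0233). Abca1, which exports cholesterol to apolipoproteins, was at 6.48, 6.04 and 6.33 in W5, against 7.56, 7.43 and 7.47 in W1 (2.31-fold lower, limma adjusted p = 0.0202). All W5 rats were below all W1 rats in these genes. Slc34a2, the phosphate transporter NaPi-IIb known mainly in lung and intestine, changed by -1.18 (limma adjusted p = 0.0413), and Niban1, a stress protein, by -0.79 (limma adjusted p = 0.0217). The others were Emp3, Mab21l3, B4galt5, Olfml3, Layn, Tmsb10, Uchl1, Lrrcc1 and Or5b106, with changes between -0.98 and -0.66. Or5b106, annotated as an olfactory receptor, was measured at 2.77, 2.49 and 2.8 in W5, against 3.66, 3.22 and 3.31 in W1, near the lower end of the scale.

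Of the 4 genes that rose in W5, 3 encode membrane or membrane-bound proteins of the epithelium. Anxa13, an annexin of the apical and basolateral membranes of epithelial cells, was at 6.55, 7.07 and 6.12 in W5, against 4.56, 3.89 and 3.79 in W1. It was 5.65-fold higher in W5 (log2 change 2.50, SE 0.478, 95% confidence interval 1.47 to 3.53), and its limma adjusted p of 0.05 lay just inside the threshold. This call remained when W0 replicate 1 or W0 replicate 3 was left out and was lost with each of the other 10 arrays, with an adjusted p of up to 0.251. Its change in those settings was 2.25 to 2.74.

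The remaining rises were smaller. Ces1e, a carboxylesterase of the endoplasmic reticulum that hydrolyses esters and lipids, was at 6.87, 6.84 and 7.09 in W5, against 5.32, 5.36 and 5.24 in W1 (3.09-fold higher, limma adjusted p = 0.041). Slc1a4, an exchanger of neutral amino acids, was at 6.38, 6.51 and 6.42 in W5, against 5.05, 5.72 and 5.22 in W1 (2.16-fold higher, limma adjusted p = 0.0245). Slc39a8, the zinc and manganese importer ZIP8, was at 7.57, 7.6 and 7.78 in W5, against 6.87, 6.7 and 6.77 in W1 (1.83-fold higher, limma adjusted p = 0.0245). No W5 rat overlapped a W1 rat in any of them, and the W5 rats differed little among themselves.

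The next genes by p among those higher in W5 did not pass. Ppm1k, a mitochondrial phosphatase that activates the breakdown of branched-chain amino acids, was at 9.03, 9.02 and 8.82 in W5, against 8.25, 7.82 and 8.03 in W1 (change 0.92, limma adjusted p = 0.0593). Cndp1, a dipeptidase that splits carnosine, was at 9.22, 9.21 and 9.26 in W5, against 8.39, 7.79 and 7.88 in W1 (change 1.21, limma adjusted p = 0.0733). Gucy1b2, a subunit of soluble guanylate cyclase, the receptor of nitric oxide, was at 8.06, 8.29 and 8.07 in W5, against 7.34, 6.92 and 7.18 in W1 (change 0.99, limma adjusted p = 0.0728). The groups did not overlap in these genes either. Adcy1, Gstp1, Pank1, Krt4 and Spp2 came next, with changes of 0.54 to 1.01 and adjusted p between 0.0784 and 0.0828.

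The lists of the proximal tubule, the thick limb and distal tubule, and the collecting duct had medians above 0 in W5 minus W1, with 1 call among their genes. The inner medulla list (21 genes) did not, with a median of -0.09, 9 genes higher in mean and 12 lower. Of 47 proximal tubule transport genes 0 passed in limma (18, or 38.3%, were higher and 4, or 8.51%, lower at an unadjusted p under 0.05, against 3.07% and 8.31% of all genes), and 34 had a higher mean in W5. The median change of the 47 genes was 0.25, and 0.21 to 0.40 with W5 and W1 arrays left out in turn. In 19 of them (40.4%) all W5 rats were above all W1 rats, which was the case in 5.25% of all genes. Slc6a13, a transporter of taurine and GABA, was at 7.72, 8.44 and 8.32 in W5, against 7.02, 7.11 and 7.33 in W1 (change 1.01, limma adjusted p = 0.0916). Slc15a2, the high affinity peptide transporter, was at 9.06, 9.23 and 9.15 in W5, against 8.71, 8.46 and 8.63 in W1 (change 0.54, limma adjusted p = 0.0916). Slc7a12, an amino acid transporter of the straight proximal tubule in mice that was chosen after its values were seen, had the largest change of the list at 10.43, 10.42 and 9.51 in W5, against 9.03, 7.27 and 8.22 in W1 (change 1.95, limma adjusted p = 0.107). The W1 rats differed widely in this gene.

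Not every transporter was part of this. Slc34a1, the main phosphate transporter of the proximal tubule, was at 11.67 to 11.91 in W5, against 11.63 to 11.9 in W1. Slc5a12, a lactate transporter of the early proximal tubule, was at 6.54 to 8.97 in W5, against 8.2 to 8.8 in W1, so the W5 rats differed more among themselves than the groups did. Of 52 genes of proximal endocytosis and enzymes 1 rose (Ces1e) and 37 had a higher mean. Their median was 0.23, and 0.17 to 0.35 with W5 and W1 arrays left out in turn. Of 33 thick limb and distal tubule genes 22 had a higher mean. In 10 (30.3%) all W5 rats were above all W1 rats and in 2 (6.06%) all were below. Their median of 0.19 was 0.08 when W1 replicate 2 and 0.09 when W5 replicate 1 was left out. Of 29 collecting duct genes 25 had a higher mean. In 10 (34.5%) all W5 rats were above all W1 rats and in 0 all were below. Among all genes 5.25% had all W5 rats above and 12.4% all below, and 60.1% had a lower mean. The collecting duct median of 0.23 was 0.13 when W1 replicate 2 was left out. Klk1, tissue kallikrein, which the connecting tubule secretes, had the smallest p of the collecting duct list at 11.44, 11.21 and 11.19 in W5, against 10.78, 9.72 and 10.71 in W1 (change 0.88, limma adjusted p = 0.145).

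**Figure D2:**
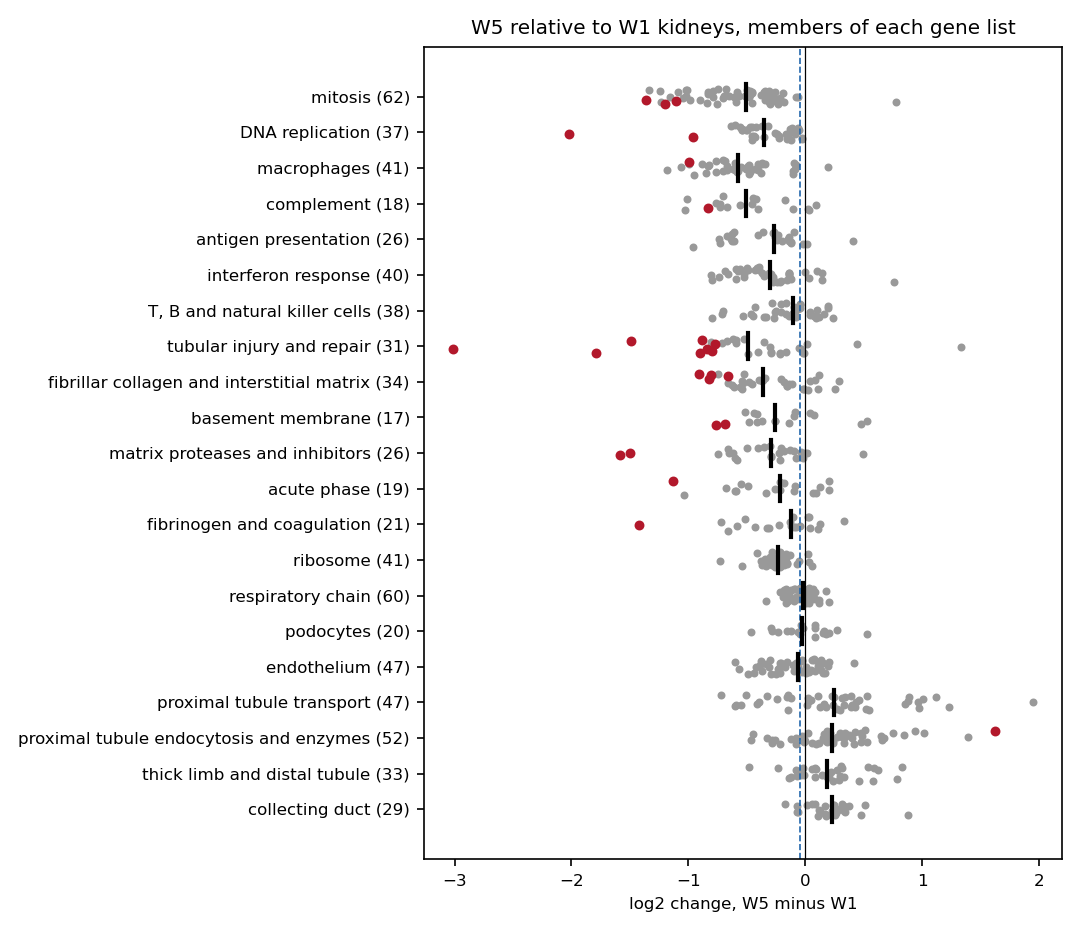
Log2 change (W5 minus W1, horizontal axis) of each member of 21 gene lists, with the number of measured members in brackets. Red points are genes called by limma, grey points the others, black bars the list medians, and the dashed blue line the median of all genes (-0.05). The bars of macrophages (-0.57), mitosis (-0.51), complement (-0.50) and tubular injury (-0.49) lie farthest to the left. Those of the tubule segment lists shown lie to the right, and the inner medulla list is not drawn.

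Ribosomal protein genes had slightly lower means in W5. Of 41 such genes 0 passed in limma (18, or 43.9%, were lower at an unadjusted p under 0.05, against 8.31% of all genes), 38 had a lower mean, and 26 (63.4%) were free of overlap downwards, with a median of -0.23. Rps24, a protein of the small subunit, was at 10.32, 10.14 and 10.45 in W5, against 10.65, 10.76 and 10.64 in W1 (change -0.38, limma adjusted p = 0.205). The lists of the respiratory chain (60 genes, median -0.02), citrate cycle (23 genes, median 0.02), mitochondrial fatty acid oxidation (29 genes, median 0.03) and peroxisome (59 genes, median 0.07) lay near the median of all genes. So did podocytes (20 genes, median -0.02) and endothelium (47 genes, median -0.06). None of these lists held a called gene in limma, the numbers at an unadjusted p under 0.05 in either direction were 0, 0, 2 (6.9%), 7 (11.9%), 4 (20%) and 8 (17%) in the order given, against 11.4% of all genes, and the medians below 0 among them turned positive with the arrays centred on their medians. In all, 12 of the 40 lists held a called gene, and 24 of the 52 called genes belonged to no list.

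The genes that changed in late recovery were set beside those that changed at the peak of damage, W0 against CTL, which uses the 6 other arrays. In that comparison 906 genes (4.99%) were higher and 802 (4.41%) lower in W0. Of the 48 genes lower in W5 than in W1, 42 were higher in W0 than in CTL, which is 87.5% of the 48 and 4.64% of the 906, and 0 were lower. Of the 4 genes higher in W5, 2 (Ces1e and Slc39a8) were lower in W0, which is 50% of the 4 and 0.249% of the 802. Across all 18166 genes the 2 changes had a Pearson r of -0.488, given as a description since genes are not independent and all arrays were normalized together.

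**Figure D3:**
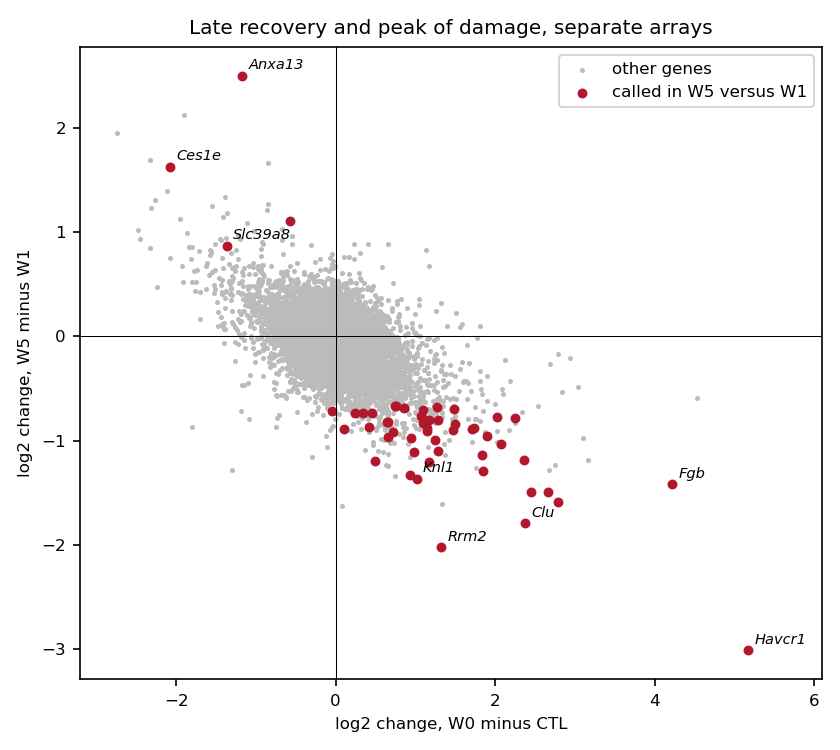
Log2 change in W5 minus W1 (vertical axis) against log2 change in W0 minus CTL (horizontal axis) for 18166 genes, from separate arrays. Red points are the 52 genes called in W5 versus W1. Of the 48 below the horizontal line, 42 were called higher in W0, with Havcr1 and Fgb farthest to the right. The calls of both comparisons share the estimate of spread.

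The other 6 genes lower in W5 were not called in W0 against CTL. Cdkn3 differed by 0.49 in W0 minus CTL (limma adjusted p = 0.131), Wdhd1 by 0.24, Hmgb2 by 0.10 and Or5b106 by -0.05. Adam12 differed by 0.41 (limma adjusted p = 0.0778) and Layn, a hyaluronan receptor, by 0.34. For Adam12 the levels were 5.71, 5.42 and 5.58 in CTL, 5.99, 5.94 and 6.02 in W0, 6.7, 6.86 and 6.53 in W1, and 5.9, 6 and 5.56 in W5. The W1 rats were therefore above all other rats in this gene.

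Levels over the 4 groups show that the called genes did not share a single course. Havcr1 was at 4.82, 5.08 and 5.89 in CTL, 10.25, 10.79 and 10.26 in W0, 8.91, 8.94 and 8.56 in W1, and 5.67, 5.79 and 5.92 in W5. Clu was at 8.32, 8.96 and 9.07 in CTL and 10.95, 11.23 and 11.31 in W0, and its W1 rats overlapped those of W0. Knl1 was at 3.62, 3.72 and 3.84 in CTL and 4.73, 4.8 and 4.69 in W0, below every W1 rat. Col1a2 was at 6.41, 6.18 and 6.58 in CTL and 6.69, 7.18 and 7.27 in W0, and again the W1 rats were higher than both. Anxa13 was at 6.33, 6.5 and 6.82 in CTL, and its W0 rats were spread widely at 6.84, 5.14 and 4.17. Injury genes such as Havcr1 were thus highest in W0, and genes such as Knl1 and Col1a2 in W1.

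**Figure D4:**
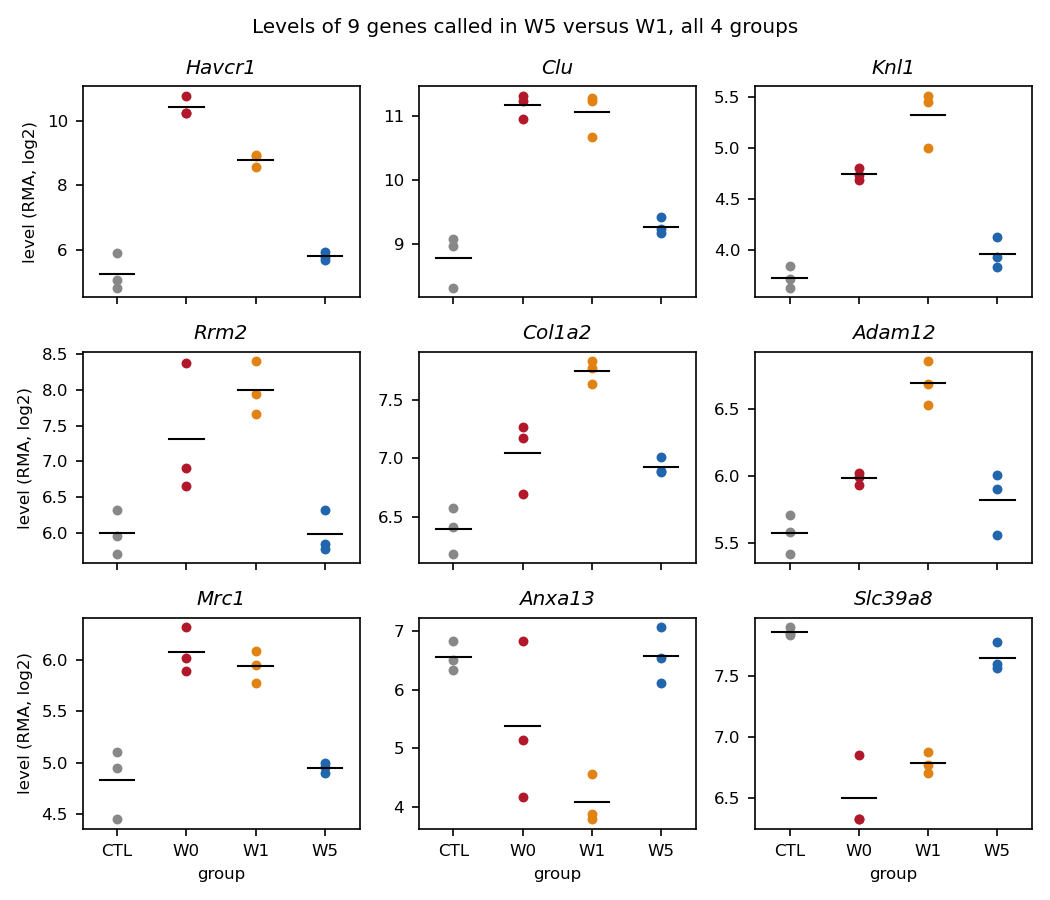
Log2 level (RMA, vertical axes, each with its own range) of 9 genes called in W5 versus W1 in CTL, W0, W1 and W5, with a point per rat and a bar at the mean of 3 rats. Havcr1 is highest in W0, whereas Knl1, Col1a2 and Adam12 are highest in W1, and the W0 rats of Anxa13 are spread between 4.17 and 6.84.

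Against CTL, which shares the W5 arrays with the comparison above, 0 genes passed in limma at W5 (0.0%), with a smallest adjusted p of 0.065, while 1333 had an unadjusted p under 0.05. Col1a1 had that smallest p, at 6.84, 6.74 and 6.74 in W5, against 5.93, 6.04 and 5.96 in CTL (difference 0.79). Col3a1 was at 7.42, 7.19 and 7.18 in W5, against 6.17, 6.21 and 6.43 in CTL (difference 0.99, limma adjusted p = 0.0761). Muc4, a membrane mucin chosen after its values were seen, was at 6.89, 6.5 and 6.94 in W5, against 5.88, 5.36 and 5.31 in CTL (difference 1.26, limma adjusted p = 0.0761). In these 3 genes the W5 rats did not overlap the CTL rats. Muc4 was also higher in W5 than in W1, where it was at 5.95, 6 and 5.88, without passing (change 0.83, limma adjusted p = 0.0902). Havcr1 differed from CTL by 0.53 (limma adjusted p = 0.672), Spp1 by 0.96 (limma adjusted p = 0.444) and Rrm2 by -0.01 (limma adjusted p = 0.997). A p above the threshold does not show that W5 and CTL kidneys are alike.

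Ism1, the secreted protein isthmin-1 on which the study centred, was not called in late recovery. Its level was 5.3, 5.9 and 6.29 in W5, against 5.22, 5.12 and 5.55 in W1 (change 0.53, 95% confidence interval 0.09 to 0.97, limma adjusted p = 0.336 over all genes). The lowest W5 rat lay within the range of the W1 rats.

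The labelled tissue was checked against defining markers. Over 6 proximal tubule markers the mean log2 level was 9.43 to 10.27 in W5, against 9.89 to 10.27 in W1, with a median change of -0.13. Among them Lrp2, Slc34a1 and Slc22a6 had positive changes (0.12, 0.03 and 0.52) and Slc5a2, Slc5a12 and Cubn negative ones (-0.40, -0.50 and -0.29), and none passed in limma. Over the thick limb markers Umod and Slc12a1 the mean was 11.05 to 11.22 in W5, against 10.81 to 11.08 in W1, and Aqp2 of the collecting duct was at 9.92 to 10.22 in W5, against 9.97 to 10.18 in W1. The podocyte marker Nphs1 was at 6.48 to 6.65 in W5, against 6.48 to 6.82 in W1. Over 4 markers of the adrenal gland, which lies against the kidney, the mean was 4.29 to 4.66 in W5, against 4.19 to 4.49 in W1, with changes between -0.16 (Cyp11b1) and 0.68 (Cyp11b2, at 5.13 to 5.54 in W5, against 3.79 to 5.4 in W1) and none passed in limma. Correlation between arrays was 0.988 to 0.992 within W5, 0.986 to 0.993 within W1 and 0.981 to 0.991 between W5 and W1.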

How the data were processed

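The deposited values are log2 expression levels that the authors normalized with RMA from Affymetrix rat arrays, 20944 probesets on 12 arrays, used as deposited. They run from 1.5244 to 12.885. Software version, scan dates and batches are not given in the sources used here. Probesets with a single gene symbol (18510; 575 had several and 1859 none) were kept, and each gene took its probeset of highest mean over the 12 arrays. This left 18166 genes, 290 of them with several probesets, which differed in sign between W5 and W1 for 107. The comparison of groups, 3 rats each, used limma 3.58.1 (R 4.3.3), a single fit over the 4 groups (13.84 total degrees of freedom, median SE 0.145), with Benjamini-Hochberg adjustment over all genes and 0.05 as threshold. The number of arrays limits the precision. Named genes were the 12 largest called changes in each direction (symbols of predicted genes and receptor families left out), the next by p where fewer passed, up to 4 called members or else the 2 of smallest p per list, Ism1 and Havcr1. The members and lists were chosen with earlier results of these data known, and list medians carry no test. The code was tested on simulated data. Promoters were searched with Python 3.11.15, pandas 2.3.3 and numpy 2.4.6, and figures drawn with matplotlib 3.10.9.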

Additional observations from a re-analysis of the deposited data

How the results depend on the processing

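The count of 52 called genes (4 higher, 48 lower) was 80 (18 higher) with only the arrays of the 2 groups, 30 (27 lower) with arrays centred on their medians, 31 (27 lower) with quantile normalization repeated, 86 (81 lower) among genes with a mean level of 5 or more, 82 (7 higher, 75 lower) with a variance trend and 665 (185 higher, 480 lower) with array weights. Without W0 replicate 1 and W1 replicate 1 together, chosen after seeing the data, it was 44 (16 higher, 28 lower). With arrays left out in turn the count was 3 to 152, with 0 to 25 genes higher and 3 to 127 lower, and that of 2-fold changes was 56 to 109, the highest without W1 replicate 3. For W0 against CTL the 1708 called genes were 1070 to 1789 with arrays left out in turn and 1199 to 1926 in the other settings. For W5 against CTL the count was 1 with the level filter, 1 with the trend, 2 with array weights and 0 to 1 with arrays left out. Which genes these settings shared was not counted beyond the 52, and the cause of these differences was not tested. Centring moved the median of all genes by under 0.1, to 0.03. The labels give no pairing of rats by replicate number. The deviations of same-numbered W5 and W1 arrays correlated at 0.102, 0.032 and 0.148, and those of differently numbered arrays at -0.18 to 0.045. With 3 arrays in a group these values cannot decide whether arrays of the same number share an effect. A replicate block gave 70 calls (9 higher, 61 lower). Of the named genes the sign turned only for Cyp11b1 of the adrenal list, which was not called and whose change was -0.248 to 0.018 with arrays left out in turn. Rrm2 was not called with the mean of its probesets (change -1.58, limma adjusted p = 0.0585). The number of rats limits the precision, and levels near the lower end of the array scale cannot be told from background here.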
